A study of Mus musculus with 4 samples.

Results

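The constitutive proteasome subunits are 31 genes, chosen by symbol from a list of the 20S core and the 19S regulatory particle that leaves out the immunoproteasome. All 31 were found among the 34745 Ensembl gene IDs of the deposited count table, and all 31 passed the filter on low counts. They are 7 alpha-ring genes (Psma1 to Psma7), 7 beta-ring genes (Psmb1 to Psmb7), 6 ATPase genes of the 19S base (Psmc1 to Psmc6) and 11 genes of non-ATPase subunits of the 19S particle (Psmd genes). They were measured by RNA sequencing in primary macrophages grown from the bone marrow of C57BL/6 mice. One group of 2 libraries had been transfected with Acly-E14 small interfering RNA (siRNA) and the other 2 libraries with control siRNA. Both groups were then given lipopolysaccharide (LPS), a bacterial cell wall component that activates macrophages, so no library shows cells without LPS or without transfection. Doses, times and the age or sex of the mice are not in the labels. Nor do they spell out E14 or tell whether each library had its own culture.

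The proteasome is the large protease that degrades proteins tagged with ubiquitin chains. Its 20S core is a barrel of stacked rings in which the alpha rings form the gate and the beta rings enclose the active sites. The 19S particle caps the barrel: it binds ubiquitin chains, removes them, unfolds the substrate with a ring of ATPases and threads it into the core. In macrophages the peptides made this way also feed antigen presentation, and immune signals can swap the catalytic beta subunits for the immunoproteasome forms Psmb8, Psmb9 and Psmb10. The transcription factor NFE2L1 is known to raise many subunit genes together when proteasome activity falls short.

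Each library held between 21023197 and 21837806 counts. The siRNA target Acly, the ATP citrate lyase gene, was at 158 and 154 CPM (counts scaled to a common depth with trimmed-mean, or TMM, factors) in controls and at 118 and 127 CPM under Acly-E14 siRNA (log2 -0.35, SE 0.060, edgeR adjusted p = 0.0086, or 0.058 with control library 1 left out). Across all 13108 genes tested with edgeR, 33.2% passed an adjusted p (Benjamini-Hochberg) of 0.05, with 15.9% lower and 17.3% higher under Acly-E14 siRNA. Scaled by library totals alone, 11.0% were lower and 21.2% higher, so higher genes made up 65.8% of calls in place of 52.0%. Of 20 macrophage identity genes 19 were tested (Cx3cr1 had at most 2 counts), with 10 lower, such as Cebpa (log2 -1.18), Cd68 (-0.68) and Mrc1 (-0.63), and 5 higher, such as Cd14 (1.03). Their summed level was 11096 to 11866 CPM in controls and 10867 to 11436 CPM in the other group. Fibroblast and stroma markers were higher for 13 of 15, among them Thy1, Pdgfrb, Tagln and Col1a1, with none at 0, and summed to 2271 to 3245 CPM against 5012 to 6230 CPM. Of 10 markers of T cells, B cells and neutrophils 2 were tested, S100a9 (called lower) and S100a8 (called higher, a call lost with either control library or Acly-E14 siRNA library 2 left out, adjusted p = 0.083, 0.153 and 0.216). The 10 summed to at most 11.0 CPM in any library, with Cd3e at 0 in all 4. These shifts in marker levels accompany every subunit difference below, and their part in it was not tested. In bulk RNA, fewer cells of a type and less RNA per cell cannot be told apart.

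Within the particle the transcripts were far from equal. Per kilobase of the principal transcript, the control level ran from 18.2 CPM for Psma3 to 523 CPM for Psmb6, a 28.7-fold range. The median of the 31 genes was 56.1 CPM per kilobase, and 27 of the 31 lay within 2-fold of it. Above that band stood Psmb6, which encodes the caspase-like catalytic subunit, Psmd8, a lid subunit at 376 CPM per kilobase, and Psma4 at 129. Below it lay Psma3 alone. On this scale Psmb6 was first and Psmd8 second in both groups, and neither overlapped any other gene of the list in any library. The order depends on the lengths used. In CPM not divided by length, Psmd8 (572 and 585 in controls) stood above Psmb6 (434 and 400). Psma3 (54.4 and 49.1 CPM) then stood above Psmb2 (38.9 and 44.3 CPM). Gene lengths implied by the deposited values also differed, as for Psma2 (944 against 2911 bases). In the middle of the order neighbours were within a few CPM per kilobase of each other, as with Psmb3 (56.7), Psmb7 (56.4) and Psmd4 (56.1), and their order was not resolved. The order was largely shared between groups, with a Spearman correlation of 0.932 over the 31 genes, which share libraries and transcript lengths.

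**Figure D1:**
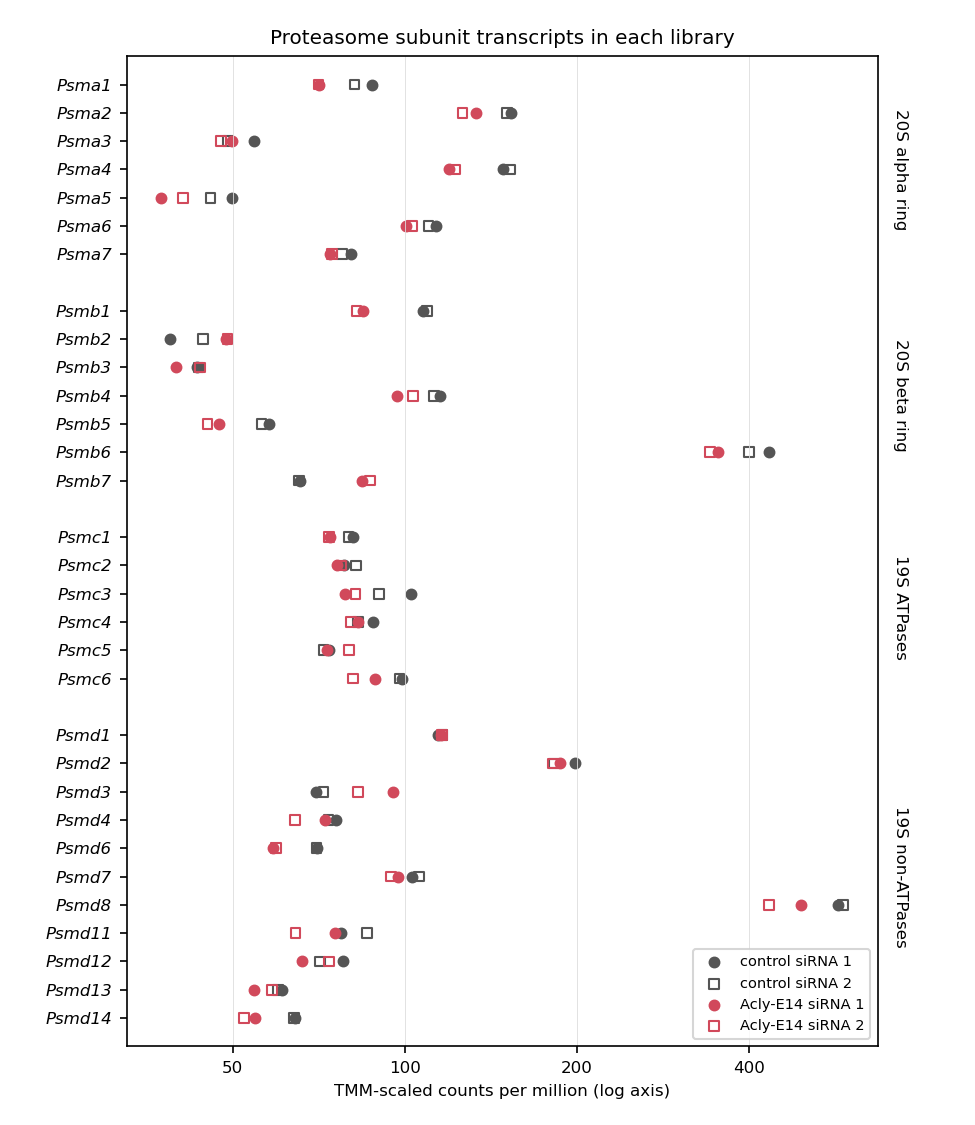
Level of each of the 31 subunit transcripts in each of the 4 libraries, in TMM-scaled CPM on a log axis, grouped by part of the particle. Psmb6 and Psmd8 sit far to the right of the rest in all 4 libraries, and for most genes the red Acly-E14 siRNA points lie to the left of the grey control points.

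The genes are spread over 14 chromosomes, with 6 of them on chromosome 11. RefSeq promoter windows (build GRCm38.p6, the same as mm10, from 250 bases before to 50 after the start) were at hand for 25 of the 31. Their GC content had a median of 56.7%, against 52.7% over all 32851 windows. The antioxidant response element core TGACNNNGC, the core of the sites that NFE2L1 and NFE2L2 bind with small MAF partners, was searched on both strands. It was in the windows of 4 of 25 subunit genes (16.0%), against 12.4% of all windows and 16.9% of the tested genes that had one. Of the 9 subunit genes that passed the test as lower and had a window, 2 held it. The 25 genes had 27 windows. Here and below a gene was counted if any of its windows held the letters, while shares of all windows are per window. The 4 are shown because they carry the motif linked to shared control of these genes. Each line ends upstream of every annotated start, capitals mark the motif, and for Psmc6 and Psmd12 the capitals hold it on the opposite strand.
Psmb5: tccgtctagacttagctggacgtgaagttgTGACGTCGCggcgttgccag
Psmb6: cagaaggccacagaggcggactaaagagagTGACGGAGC
Psmc6: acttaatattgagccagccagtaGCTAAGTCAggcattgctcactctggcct
Psmd12: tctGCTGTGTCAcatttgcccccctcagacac

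The Psmb5 window is at chr14:54618023-54618072 on the minus strand, with the motif at bases -47 to -39 from the RefSeq start, where -1 is the base before the start. The plus-strand Psmb6 window is at chr11:70525318-70525356, and its motif ends directly at the start (-9 to -1). Those of Psmc6 (chr14:45329574-45329625, plus strand) and Psmd12 (chr11:107479278-107479309, plus strand) lie farther out, from -227 and -247. A match is a run of letters, not a shown binding site. The ETS site letters CCGGAAG were in the windows of 10 of 25 subunit genes (40.0%), against 8.86% of all windows and 20.1% of tested genes with one. Of the 9 subunit genes called lower that had a window, 1 held these letters. They are shown for the 5 subunit genes in which the match lay upstream of every annotated start, all of them 19S genes, with CTTCCGG where the letters are on the opposite strand.
Psmc2: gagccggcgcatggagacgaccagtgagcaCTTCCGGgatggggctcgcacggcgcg
Psmc6: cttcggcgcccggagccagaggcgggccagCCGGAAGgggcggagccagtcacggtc
Psmd2: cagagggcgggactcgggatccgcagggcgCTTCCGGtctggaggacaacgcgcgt
Psmd4: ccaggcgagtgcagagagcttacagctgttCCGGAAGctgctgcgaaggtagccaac
Psmd11: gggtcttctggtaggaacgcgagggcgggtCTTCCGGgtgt

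These lie at chr5:21785161-21785217 for Psmc2, chr14:45329694-45329750 for Psmc6, chr16:20651596-20651651 for Psmd2 and chr11:80428574-80428614 for Psmd11, all on the plus strand. For Psmd4 the window is chr3:95042713-95042769 on the minus strand. The CCAAT box (CCAAT) was in the windows of 10 of 25 subunit genes, the GC box (GGGCGG) in those of 15 and the TATA box letters (TATAAA) in those of 3. Those letters occurred in 42.8%, 68.6% and 8.96% of the tested genes with a window.

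Most of these transcripts had slightly lower values with Acly-E14 siRNA than with control siRNA. Of the 31 genes 11 fell (35.5%, against 15.9% of all genes tested), 2 rose (6.45%, against 17.3%) and 18 were not called. The median log2 change of the 31 was -0.13, against 0.003 over all genes, and 26 of 31 had a value below 0 (83.9%, against 49.8%). Both Acly-E14 siRNA libraries lay below both controls for 22 of the 31 genes (71.0%, against 35.3%) and above both for 3 (9.68%, against 35.3%). With library totals these counts were 15 (against 27.3%) and 5 (against 43.7%). The called changes were small, between 0.23 and 0.39 on the log2 scale in size, with a median standard error (SE) of 0.062 over the 31 genes.

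Summed over the 31 genes, the level was 3557 and 3489 CPM in controls and 3182 and 3092 CPM under Acly-E14 siRNA. The groups did not overlap, and the sum changed by -11.0% (log2 -0.17, pooled SD 0.025, exact two-sided permutation p = 0.333, the smallest that 2 against 2 can give). Psmb6 and Psmd8 weigh heavily in this sum, and without them it changed by -7.93%. With library totals in place of trimmed-mean factors the change of the sum was -5.13% (3406 and 3416 against 3261 and 3211 CPM), again without overlap.

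**Figure D2:**
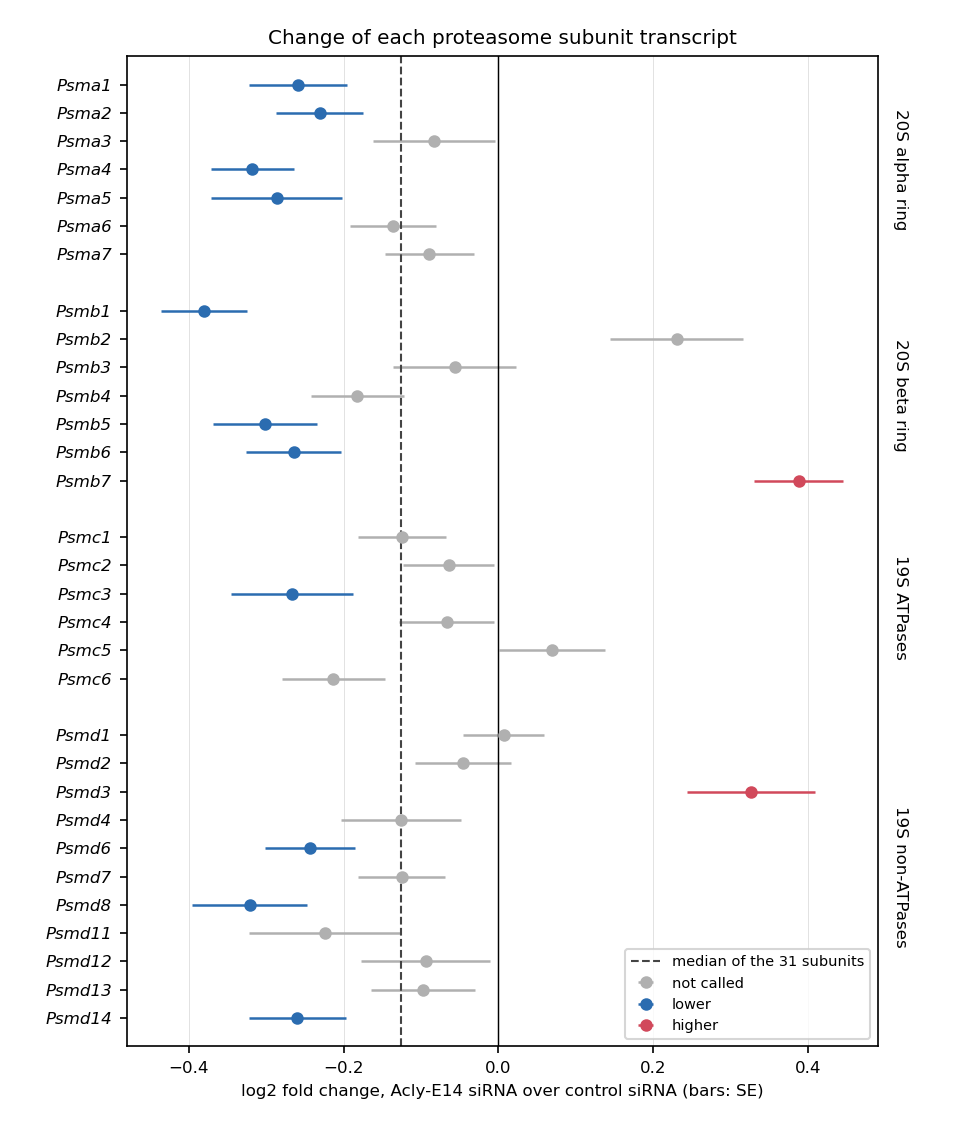
Log2 fold change of each subunit transcript, Acly-E14 siRNA over control siRNA, with its standard error, and the median of the 31 genes as a dashed line. Blue points mark the 11 genes called lower and red points the 2 called higher (edgeR adjusted p under 0.05); 26 of the 31 points lie left of 0.

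Which subunits passed the test, and how many, depended on the libraries. With control library 1 or either Acly-E14 siRNA library left out, the share called lower was not above that of all genes in the same fit. Without control library 1 the counts of lower and higher subunits were 2 and 1, without control library 2 they were 5 and 1, without Acly-E14 siRNA library 1 they were 3 and 1, and without library 2 they were 2 and 2. Psma4 and Psmb1 were called lower and Psmb7 higher in each of these 4 fits. With library totals 4 of the 11 lower calls remained (Psma4, Psmb1, Psmb6 and Psmd8), and Psmb2 joined the higher ones. The background then was 11.0% lower and 21.2% higher. Leaving out the filter on low counts gave 8 lower and 1 higher, and DESeq2 gave 13 and 2. Limma on log2(FPKM + 1), where FPKM is the deposited level scaled by gene length and depth, gave 2 and 2. Of all 13108 genes that fit called 1313 lower and 2545 higher, so the lower share was smaller among the subunits than among all genes. The median log2 change of the 31 genes minus that of all genes was between -0.16 and -0.08 in the 11 alternative fits. This difference cannot show an effect of scaling, because subtracting the median of all genes removes it. Without the subtraction the median of the 31 genes was -0.13 with TMM factors and -0.035 with library totals.

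**Figure D3:**
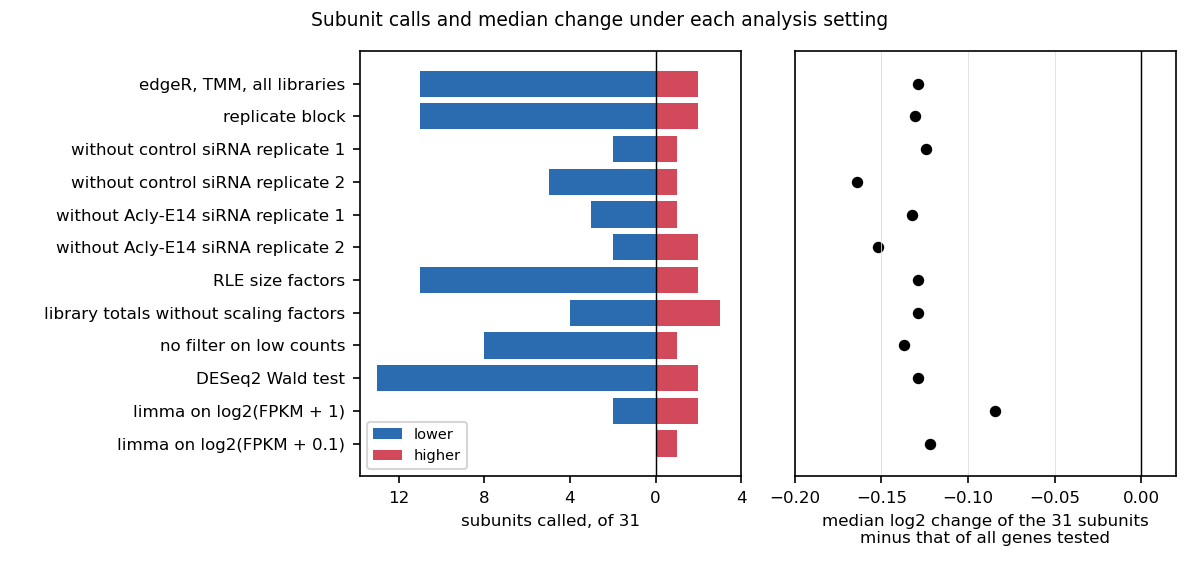
Left, number of the 31 subunits called lower (blue) or higher (red) under each analysis setting; right, median log2 change of the 31 subunits minus that of all genes tested. The number of lower calls ranges from 0 to 13. The right panel lies between -0.16 and -0.08 for the alternatives, and it cannot show an effect of scaling, which the subtraction removes.

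All 7 alpha-ring genes had values below 0 (against 49.8% of all genes tested), and 4 of them fell (57.1%, against 15.9%). These genes encode the outer ring, whose subunits close the gate of the core and receive the regulatory particle. Psma4 was at 148 and 153 CPM in controls and at 120 and 122 CPM under Acly-E14 siRNA. This was a log2 change of -0.32 (SE 0.054, edgeR adjusted p = 0.0087), with both treated libraries well below the controls. Psma1 went from 87.6 and 81.6 CPM to 70.8 and 70.6 CPM (log2 -0.26). Psma2 went from 153 and 151 CPM to 133 and 126 CPM (log2 -0.23, SE 0.056). Both were called (edgeR adjusted p = 0.026 for each), and for both the groups stood apart.

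The Psma1 call did not hold when control library 1 (edgeR adjusted p = 0.119) or either Acly-E14 siRNA library (0.101 and 0.123) was left out. That of Psma2 was lost with any 1 of the 4 libraries left out (0.056 to 0.141). Psma5, at 49.8 and 45.7 against 37.4 and 40.9 CPM, was called narrowly (log2 -0.29, adjusted p = 0.047). Its call was lost with any 1 library left out (0.064 to 0.207). Its counts are uncertain, since the near-identical copy Gm8394 held 2713 counts over the 4 libraries against 3693 for Psma5 itself. Gm8394 was at 33.9 and 34.9 CPM in controls and 28.9 and 29.8 CPM in the other group (log2 -0.23, adjusted p = 0.067). The remaining 3 had log2 changes of -0.14 (Psma6), -0.09 (Psma7) and -0.08 (Psma3) and were not called. For Psma7 and Psma3 the sign turned with library totals.

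The beta ring was mixed, with 3 genes lower (42.9%, against 15.9% of all genes tested), 1 higher (14.3%, against 17.3%) and 3 not called. Psmb1, Psmb2, Psmb3 and Psmb4 encode structural subunits without an active site of their own. Psmb1 was at 108 and 109 CPM in controls and at 84.5 and 82.3 CPM under Acly-E14 siRNA. It had the largest fall of the list (log2 -0.38, SE 0.055, edgeR adjusted p = 0.0054), and its groups were far apart beside the spread within them. Psmb3 overlapped between groups (43.3 and 43.5 against 39.7 and 43.8 CPM). Psmb4 was lower without passing the test (log2 -0.18, adjusted p = 0.065, or 0.034 in DESeq2). Psmb2 was at 38.9 and 44.3 against 48.7 and 49.0 CPM, above both controls in both treated libraries (log2 0.23, adjusted p = 0.088).

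The 3 catalytic genes of the beta ring did not move in the same direction. Psmb5 encodes the chymotrypsin-like subunit, the main target of proteasome inhibitor drugs. It was at 57.9 and 56.1 CPM in controls and at 47.4 and 45.2 CPM under Acly-E14 siRNA (log2 -0.30, SE 0.067, edgeR adjusted p = 0.020). Psmb6 was at 434 and 400 CPM against 352 and 342 CPM (log2 -0.26, SE 0.061, adjusted p = 0.022). Psmb7, for the trypsin-like subunit, went the other way, from 65.6 and 65.2 CPM to 84.1 and 87.0 CPM. It rose 1.31-fold (SE of log2 0.058, adjusted p = 0.0058) and was called in all 11 alternative fits.

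The Psmb5 call was lost with any 1 library left out (edgeR adjusted p between 0.054 and 0.119), and that of Psmb6 when control library 1 (0.119) or either Acly-E14 siRNA library (0.063 and 0.103) was left out. Psmb7 (mm10, chromosome 2, 38588036 to 38644087, minus strand) shares exons with Nek6, a kinase gene on the opposite strand. Of the 1160 bases of its principal transcript, 405 lie in Nek6 exons. Nek6 itself was at 32.4 and 35.8 CPM in controls and at 65.2 and 66.0 CPM under Acly-E14 siRNA (1.92-fold, adjusted p = 0.0013). Whether the counting used strand is not stated, so reads of Psmb7 and Nek6 cannot be told apart in the shared bases.

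Ratios within a library do not depend on scaling, so the catalytic subunits were also set against each other per kilobase of principal transcript. Psmb7 over Psmb5 was 0.878 and 0.900 in controls and 1.38 and 1.49 under Acly-E14 siRNA, a 1.61-fold higher ratio. Each immunoproteasome subunit replaces 1 catalytic subunit. Psmb10 over its counterpart Psmb7 was 4.97 and 4.49 in controls and 2.88 and 2.85 in the other group. Psmb8 over Psmb5 was 2.89 and 2.86 against 3.17 and 3.18, a 1.10-fold higher ratio. Psmb9 over Psmb6 was the lowest of the 3 (0.134 and 0.137 against 0.146 and 0.137) and its groups overlapped. The exact two-sided permutation p was 0.333 for each ratio whose groups were apart and 0.667 for Psmb9 over Psmb6, and 2 against 2 libraries cannot give less than 0.333. The shift of Psmb10 over Psmb7 and of Psmb7 over Psmb5 carries the same uncertainty from Nek6 as Psmb7 itself.

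**Figure D4:**
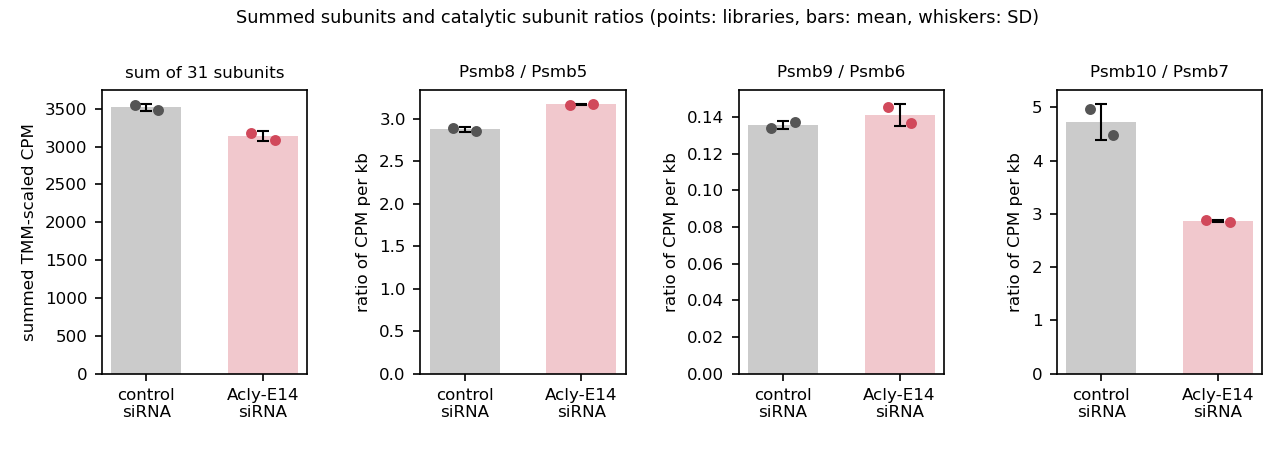
Summed level of the 31 subunits (TMM-scaled CPM) and the ratio of each immunoproteasome subunit to the constitutive subunit it replaces (CPM per kilobase of principal transcript), with points for libraries, bars for the mean of 2 and whiskers for SD. The Psmb10 to Psmb7 ratio is 4.73 in controls and 2.87 under Acly-E14 siRNA on average, while the Psmb9 to Psmb6 ratio overlaps between groups.

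The immunoproteasome genes themselves were also lower in every Acly-E14 siRNA library than in either control, as were 35.3% of all genes tested. Psmb10 was at 369 and 331 against 274 and 280 CPM and fell (log2 -0.34, edgeR adjusted p = 0.014). That call did not hold when control library 1 (0.076) or either Acly-E14 siRNA library (0.061 and 0.054) was left out. Psmb8 (304 and 290 against 272 and 260 CPM) and Psmb9 (98.6 and 92.9 against 86.9 and 79.3 CPM) were not called by edgeR, both with adjusted p = 0.074, but were by DESeq2 (0.017 and 0.045). Summed over the 3 catalytic positions, the ratio of immuno to constitutive subunits was 1.71 and 1.66 in controls and 1.57 and 1.61 in the other group as FPKM (log2 difference -0.08). Per kilobase of principal transcript it was 0.813 and 0.805 against 0.776 and 0.780 (log2 difference -0.06). The groups stood apart on both scales (exact permutation p = 0.333), but which of the sums was larger depended on the gene lengths used. The tissue-specific subunit genes Psma8 (testis) and Psmb11 (thymus) were below the filter, Psmb11 at 0 counts in all 4 libraries.

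Among the 6 ATPase genes of the 19S base 1 fell (16.7%, against 15.9% of all genes tested), 0 rose at an adjusted p under 0.05 in edgeR, and 5 were not called. At an unadjusted p under 0.05 Psmc3 and Psmc6 were lower and 0 genes higher. DESeq2 called those 2 lower and 0 higher, and edgeR with library totals called none of the 6, with 0 at an unadjusted p under 0.05. Psmc3 was at 103 and 90.2 CPM in controls and 78.4 and 81.9 CPM under Acly-E14 siRNA (log2 -0.27, SE 0.079, edgeR adjusted p = 0.048). Its controls differed by more than its treated libraries did, and it missed the threshold when control library 1 (0.185) or either Acly-E14 siRNA library (0.179 and 0.122) was left out. Merged over all its transcripts Psmc3 shares 215 exon bases with Slc39a13 on the opposite strand, none of them in its principal transcript. Psmc6 (98.9 and 97.8 against 88.7 and 81.1 CPM, log2 -0.21) was just outside the threshold at an adjusted p of 0.054. Psmc1, Psmc2 and Psmc4 had log2 changes of -0.12, -0.06 and -0.07, and the sign of the last 2 turned with library totals. Psmc5 had a value of 0.07, with groups that overlapped.

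Among the 11 non-ATPase genes of the 19S particle 3 fell (27.3%, against 15.9% of all genes tested), 1 rose (9.09%, against 17.3%) and 7 were not called. Psmd14 encodes the deubiquitinase that cuts the ubiquitin chain off the substrate, and Psmd7 its inactive partner. Psmd14 was at 64.1 and 64.0 CPM in controls and at 54.7 and 52.4 CPM under Acly-E14 siRNA (log2 -0.26, SE 0.062, edgeR adjusted p = 0.025). Psmd7 was at 103 and 106 against 97.1 and 94.5 CPM and was not called (log2 -0.12, adjusted p = 0.14). In both genes the groups stood apart, and the controls of Psmd14 were nearly equal.

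The other lid subunits serve mainly as scaffold. Psmd8 was first of the list in CPM and second per kilobase of principal transcript. It was at 572 and 585 CPM in controls and at 493 and 433 CPM under Acly-E14 siRNA (log2 -0.32, SE 0.074, edgeR adjusted p = 0.022). Psmd6 was at 70.1 and 70.1 against 58.8 and 59.6 CPM (log2 -0.24, SE 0.058, adjusted p = 0.025). In contrast to its lid neighbours, Psmd3 went from 70.0 and 72.0 CPM to 95.4 and 82.8 CPM and rose 1.25-fold (SE of log2 0.082, adjusted p = 0.029). Both treated libraries exceeded both controls, but they differed from each other by more than the controls did. Psmd11, Psmd12 and Psmd13 had log2 changes of -0.22, -0.09 and -0.10 and were not called. Psmd12 overlapped between groups (78.0 and 71.0 against 66.0 and 73.7 CPM).

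Psmd14 and Psmd6 missed the threshold with any 1 library left out (edgeR adjusted p 0.076 to 0.148 and 0.081 to 0.118). Psmd8 missed it when a control library (0.090 and 0.094) or Acly-E14 siRNA library 2 (0.082) was left out. For Psmd3 this was so with either control library (0.136 and 0.090) or Acly-E14 siRNA library 1 (0.118) left out.

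Of the remaining 3 genes, Psmd1, the largest scaffold of the base, was at 114 and 116 CPM in controls and at 116 and 116 CPM in the other group (log2 0.01, SE 0.053, adjusted p = 0.94). Psmd2, which docks ubiquitin shuttle proteins, was at 198 and 182 against 187 and 182 CPM (log2 -0.05, adjusted p = 0.61). Psmd4, a ubiquitin receptor, was at 75.9 and 73.5 against 72.6 and 64.3 CPM (log2 -0.13, adjusted p = 0.26). None of the 3 was called in the 11 alternative fits either. A missed threshold does not show that their levels were equal.

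Of the 14 core genes 7 fell and 1 rose, and of the 17 genes of the 19S particle 4 fell and 1 rose. Over all genes tested, 15.9% fell and 17.3% rose. The median log2 changes of the core genes and the 19S genes were -0.21 and -0.12. The difference between them was tested only as a ratio per library. The median FPKM of the 19S genes over that of the 20S genes was 0.574 and 0.594 in controls and 0.563 and 0.562 under Acly-E14 siRNA (log2 difference -0.05, exact permutation p = 0.333). As a ratio of sums it was 0.902 and 0.921 against 0.951 and 0.912 (log2 difference 0.03), so the direction depended on the summary and no shift between core and cap was shown.

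Transcripts of proteins that assemble, open or accompany the proteasome were taken from 3 further lists. Of 8 further 19S subunits and bound enzymes 2 fell (25.0%, against 15.9% of all genes tested) and 0 rose in edgeR. Ecpas, which encodes a scaffold that tethers the cap to the core, went from 269 and 244 CPM to 185 and 180 CPM (log2 -0.49, SE 0.065, adjusted p = 0.0042). Txnl1, a thioredoxin-like protein bound to the cap, had a log2 change of -0.30 (adjusted p = 0.012). At an unadjusted p under 0.05, 3 were lower and 0 higher. Of 5 activators and inhibitors 2 fell (40.0%) and 0 rose, and the same 2 were the only ones at an unadjusted p under 0.05. They were Psme4 (200 and 185 against 157 and 148 CPM, log2 -0.34) and Psme1 (205 and 204 against 175 and 166 CPM, log2 -0.26), while Psme2, the partner of Psme1 in the interferon-inducible activator, was not called (log2 -0.16, adjusted p = 0.17). Of 9 assembly chaperones tested 1 fell (11.1%), Psmd10 (log2 -0.28, adjusted p = 0.041), and at an unadjusted p under 0.05 there were 2 lower and 0 higher. Pomp, the chaperone that helps mature the core, was not called (log2 -0.13, adjusted p = 0.17).

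Of these calls Ecpas held in all 11 alternative fits. Txnl1 was not called without control library 1 (adjusted p = 0.070) or Acly-E14 siRNA library 2 (0.081), nor were Psme1 (0.084 and 0.088) and Psme4 (0.083 and 0.073). Psme1 was also lost without control library 2 (0.069), and Psmd10 without either control library (0.129 and 0.113) or Acly-E14 siRNA library 2 (0.206).

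Genes of the NFE2L1 circuit were described from a list of 11, of which 5 fell (45.5%, against 15.9% of all genes tested), 0 rose and 6 were not called in edgeR. Nfe2l1 itself was at 136 and 138 CPM in controls and at 95.9 and 105 CPM under Acly-E14 siRNA (log2 -0.45, SE 0.065, adjusted p = 0.0054). Its relative Nfe2l2, the main regulator of the oxidative stress response, went from 303 and 315 CPM to 250 and 260 CPM (log2 -0.28, adjusted p = 0.013). Their small partners Mafk and Mafg had log2 changes of -0.43 and -0.25. Ddi2, the protease that releases active NFE2L1, was at 29.4 and 30.4 against 30.6 and 35.8 CPM and was not called (adjusted p = 0.30). Fbxw7, a ubiquitin ligase gene outside the naming rule, was the fifth (log2 -0.51, adjusted p = 0.028). Its call was lost with either control library (0.127 and 0.067) or Acly-E14 siRNA library 1 (0.071) left out. Nfe2l1 held in every fit but limma on log2(FPKM + 0.1) (0.064). The Nfe2l2 call ended with either control library (0.056 and 0.072) or Acly-E14 siRNA library 1 (0.064) left out, that of Mafk without control library 1 (0.072) and that of Mafg with any 1 library left out (0.051 to 0.145). At an unadjusted p under 0.05, 5 genes were lower and 0 higher. With library totals 2 of the 11 were called lower. With control library 1 left out 1 was, with control library 2 left out 2 were, and with Acly-E14 siRNA library 1 or 2 left out 3 and 4 were.

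Upstream of the proteasome, the ubiquitin gene Ubb was at 558 and 559 CPM against 614 and 617 CPM and was not called (log2 0.14, edgeR adjusted p = 0.077, or 0.0045 in DESeq2 and 0.013 with library totals). The ubiquitin-activating enzyme gene Uba6 fell (log2 -0.60), as did Uba7 (log2 -0.28), which activates the ubiquitin-like protein ISG15. Of 13 shuttle and VCP-linked genes 6 fell (46.2%) and 0 rose. Of all genes tested 15.9% fell and 17.3% rose, and with library totals 11.0% fell. At an unadjusted p under 0.05 there were 7 and 0, with library totals 3 were called lower, and the lower count was 2 without Acly-E14 siRNA library 2 and 3 with any other 1 library left out (without control library 2, 1 gene was also called higher). DESeq2 and limma also called 0 genes higher in the shuttle list, the NFE2L1 list and the lists of bound enzymes, activators and chaperones. Zfand5, a zinc finger protein that stimulates the proteasome, went from 268 and 253 CPM to 159 and 141 CPM (log2 -0.80, SE 0.075, adjusted p = 0.0019). Ufd1 (log2 -0.60) and Vcp (log2 -0.24), parts of the complex that extracts ubiquitinated proteins, fell too, as did the shuttle gene Ubqln4 (log2 -0.42).

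Zfand5, Ufd1 and Uba6 held in all 11 alternative fits. Vcp was not called with any 1 library left out (adjusted p between 0.065 and 0.089), Ubqln4 without Acly-E14 siRNA library 2 (0.061), and Uba7 with either control library (0.109 and 0.065) or Acly-E14 siRNA library 2 (0.094) left out.

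Other many-subunit complexes of the cytosol were set beside the proteasome. The COP9 signalosome and the translation factor eIF3 are built on the same kinds of subunit as the proteasome lid, and the CCT chaperonin is a further double-ring machine. Of 9 COP9 signalosome genes 2 rose (22.2%, against 17.3% of all genes tested) and 0 fell, with a median log2 change of 0.14. Cops7a rose 1.44-fold and Cops2 1.42-fold. Of 13 eIF3 genes 3 rose (Eif3k 1.34-fold, Eif3h 1.23-fold and Eif3i 1.21-fold) and 0 fell, with a median of 0.12. That is 23.1% higher, and with library totals 6 were (against 21.2% of all genes). Of 8 CCT genes 2 rose (Cct2 with a log2 change of 0.67 and Cct3 with 0.38) and 0 fell, with a median of 0.03, and 2 of 8 is 25.0%. These shares of higher genes lie near that of all genes, and the lists are too short to read more from them. At an unadjusted p under 0.05 edgeR had 0 lower genes in each of the 3 lists, limma called 0 lower, and DESeq2 called 1, Eif3c (adjusted p = 0.028). Without control library 2, Cops8 was called lower (0.019). With library totals 3 COP9 and 3 CCT genes were called higher. The difference between these complexes and the proteasome was not itself tested. With control library 1 or Acly-E14 siRNA library 2 left out, 1 COP9 gene and 1 eIF3 gene were called higher. Leaving out control library 1 ended the calls of Cops2 (adjusted p = 0.052), Eif3h (0.063), Eif3i (0.108) and Cct3 (0.055), and leaving out Acly-E14 siRNA library 2 those of Cops2 (0.059), Eif3h (0.057) and Eif3i (0.133). Eif3i was also lost without control library 2 (0.060) or Acly-E14 siRNA library 1 (0.088).

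**Figure D5:**
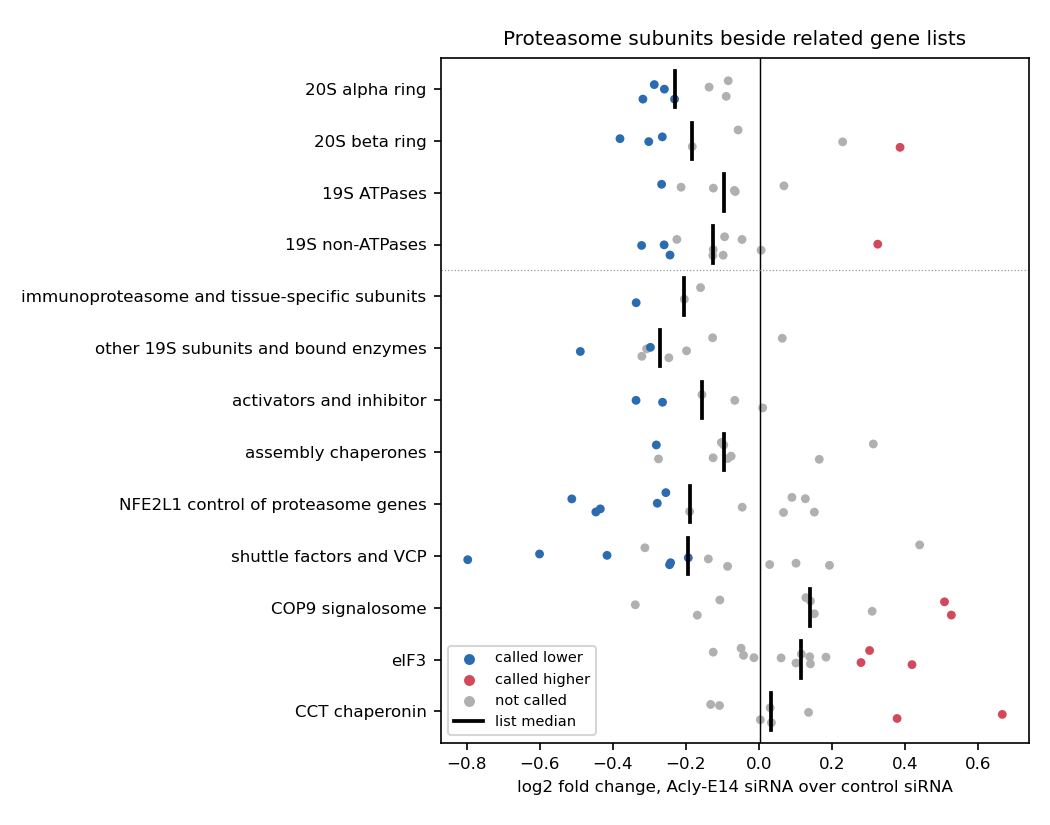
Log2 fold change of each tested gene in the 4 parts of the proteasome (above the dotted line) and in related lists, with the list median as a black bar and the median of all genes as the vertical line. The medians of the proteasome parts lie between -0.23 and -0.10, and those of the COP9 signalosome, eIF3 and the CCT chaperonin between 0.03 and 0.14.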

How the data were processed

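RNA from 4 libraries was analysed, 2 per group, with groups taken from the sample titles. The deposited table gives raw read counts per Ensembl gene and FPKM values made by the authors, per the file headers. HISAT2, StringTie 1.3.0, edgeR and mm10 are named per the submitters' processing notes. The sources used here do not give the counting program, its strand setting or the annotation. Per the labels' protocols 2 library kits were used, 1 of them strand-specific. Of the value columns, 1 without a replicate number was not used. Symbols were found for 34267 of 34745 IDs, and 17 IDs whose symbol another ID with more counts also had were left out; 1 listed gene, Paaf1, was not matched.

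Counts were tested with edgeR 4.0.16 (R 4.3.3): filterByExpr at a minimum count of 10, TMM factors, quasi-likelihood F test without covariates, Benjamini-Hochberg adjustment over 13108 genes. SEs are those implied by the F statistic. Subunit counts ran from 783 to 12503 per library. The test was tried on simulated counts. FPKM for ratios used the gene length implied by the deposited FPKM. Levels per kilobase used the principal transcript of GENCODE M21, since the implied lengths often differed from it (Psma3, 6255 against 2846 bases). Near copies were transcripts of other genes with at least 95% identity over 100 bases (BLAST 2.17.0). Alternatives used DESeq2 1.42.0 and limma 3.58.1. Replicates differed by more than sampling noise (chi-square per degree of freedom 10.1 and 11.7). Since nothing says that libraries are separate cultures, p-values reflect a spread that may be only technical.

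Members and gene lists were chosen with earlier results of these data known. All 31 members are named, and of each other list up to 4 called genes of smallest p plus 12 fixed genes, 1 of which is not reported here. Nek6, Slc39a13 and Gm8394 were added after seeing the data, because they share sequence with members, as were Psma8, Psmb11, Cx3cr1 and Cd3e.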

Additional observations from a re-analysis of the deposited data

How the results depend on the processing

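Of the 13 called subunits, 1 (Psmb7) kept its call in all 11 alternative fits, and none of the 13 changed sign. The count of called subunits was 3 to 6 when 1 library was left out, 7 with library totals, 4 with limma on log2(FPKM + 1) and 1 with limma on log2(FPKM + 0.1). Counts of lower subunits were 2 to 5 with 1 library left out, 4 with library totals, 2 with log2(FPKM + 1) and 0 with log2(FPKM + 0.1). At an unadjusted p under 0.05 that last limma fit had 3 lower and 3 higher. Higher subunits numbered 1 to 2 with 1 library left out, 1 without the filter and 1 with log2(FPKM + 0.1). All genes called numbered 2088 to 3215 with 1 library left out, against 4354. Where a group was left with 1 library, that library was assumed to vary like the other group. The median change of the 31 was -0.16 to -0.12 with 1 library left out, and -0.035, -0.034 and -0.037 with library totals and the 2 limma fits. Library totals moved the median of all genes to 0.09. The summed level changed by -0.076 on the log2 scale with library totals. The 19S to 20S ratio turned from -0.05 to 0.031 as a ratio of sums and was -0.086 per kilobase of principal transcript, a setting chosen after seeing the data.

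Signs turned for 7 subunits, none of them called. With library totals, log2(FPKM + 1) and log2(FPKM + 0.1) the log2 changes were 0.0083, 0.0079 and 0.0088 for Psma3, 0.0025, 0.0022 and 0.0023 for Psma7, 0.035, 0.031 and 0.033 for Psmb3, 0.027, 0.026 and 0.027 for Psmc2, 0.025, 0.024 and 0.025 for Psmc4, and 0.046, 0.045 and 0.047 for Psmd2. With 1 library left out Psmb3 ran from -0.13 to 0.015, Psmd2 from -0.11 to 0.011 and Psmd1 from -0.0096 to 0.016, and Psmd1 was at -0.00013 without the filter. The causes were not tested.

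The replicate numbers are shared only as numbers (correlation of same-numbered deviations 0.14, over 2 pairs). With the replicate number as a block, 11 subunits were lower and 2 higher, 10 and 2 of them as before: Psma5 was lost (adjusted p = 0.051) and Psmc6 gained (0.036). The block changed all calls from 4354 to 4896 genes. The replicate block also gave 1 lower eIF3 gene, Eif3c (0.049). With 783 to 12503 counts per subunit and library, depth and the spread between 2 libraries per group limit what can be seen of the smallest changes. Psmd8, with 9482 to 12503 counts, had an SE of 0.074, against 0.058 for Psmd6 with 1286 to 1498 counts.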
